A study of Gallus gallus with 3 samples.

Results

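The transcriptomes of 2 chicken B cell clones that carry the same knock-in, clone 41 and clone 47, were compared gene by gene. Both clones, and the untransfected cells that serve as their control, are of the DT40-ASF line. DT40 is a B cell line from a bursal lymphoma, and from general knowledge of the line, not from the deposited files, DT40-ASF cells have a disrupted chicken SRSF1 gene and live on a human copy (ASF). Clone 41 and clone 47 are both labelled with the genotype SRSF1-3 knock in, and the untransfected cells with the genotype control. All 3 cultures were grown under the same stated protocol, and each gave 1 library, so each genotype label here stands for single clones and cultures. Members of the comparison were the genes with at least 10 counts in clone 41 or clone 47, which held for 10133 of the 11877 genes of the count table. Of these, 10099 were also in the table of FPKM, a level scaled by transcript length and library size.

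With 1 library per clone there is no test, and no value below has a replicate. The choice of a single clone, the history of its culture and its SRSF1 level cannot be told apart. Ratios are clone 41 over clone 47 and come from counts scaled to a common library size (CPM, with TMM factors), so a gene lower in clone 41 is equally a gene higher in clone 47. Intervals in brackets are exact conditional binomial 95% intervals of a ratio. These reflect counting error alone. They may be too narrow even for that, because copies made by PCR are not independent molecules. In bulk RNA, fewer cells of a type and less RNA per cell cannot be told apart.

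SRSF1 is the founding member of the SR proteins, which bind exonic sequences through RNA recognition motifs and recruit the splicing machinery through a domain rich in arginine and serine. SR proteins also act in mRNA export, nonsense-mediated decay and translation, and they regulate the splicing of their own transcripts and of one another's. SRSF1-3 is a splice isoform of SRSF1. DT40 cells are known for frequent gene targeting and for diversifying their immunoglobulin genes by gene conversion, and they express the B cell receptor.

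Depth was similar in the libraries, with total counts of 42439517 in clone 41, 41760372 in clone 47 and 44868987 in the control. A count of 0 allowed up to 0.0742 CPM in clone 41 and 0.0686 CPM in clone 47, taken as 3 counts. Genes of the mitochondrial genome held 4.05% of counts in clone 41, 4.42% in clone 47 and 3.33% in the control, and cytosolic ribosomal protein genes 9.48% in clone 41, 7.40% in clone 47 and 8.30% in the control. All 12 B cell markers were members, which asks for at least 10 counts in clone 41 or clone 47 and nothing of the control. PAX5 and CD79B were seen in each library. PAX5, the master transcription factor of B cells, had 1524 counts in clone 41, 1669 in clone 47 and 1648 in the control. CD79B, a signalling chain of the B cell receptor, had 3597 in clone 41, 4340 in clone 47 and 6053 in the control.

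Markers of other cell types were sparse but not at 0. Of the 8 T and NK cell markers in the files 6 were members, with a summed level of 20.8 CPM in clone 41, 33.0 in clone 47 and 40.5 in the control, while CD4 had 0 counts in both clones. Of these 6, LCK (5 counts in clone 41, 113 in clone 47 and 12 in the control), CD8A (359 in clone 41, 920 in clone 47 and 1011 in the control) and CD3E (10 in clone 41, 33 in clone 47 and 38 in the control) were at least 2-fold lower in clone 41. The other 3 were within 2-fold and lay above 0: CD3D (296 in clone 41, 232 in clone 47 and 268 in the control), CD247 (125 in clone 41, 118 in clone 47 and 267 in the control) and CD28 (45 in clone 41, 28 in clone 47 and 225 in the control). Myeloid markers, 3 of 7, summed to 95.4 CPM in clone 41, 124 in clone 47 and 94.9 in the control. They went both ways, with log2 ratios from -1.94 to 2.74, 1 at least 2-fold higher and 1 lower in clone 41. Fibroblast and epithelial markers, 3 of 6, summed to 29.4 CPM in clone 41, 16.8 in clone 47 and 20.3 in the control. Their log2 ratios ran from -3.92 to 0.92. The one erythroid and thrombocyte marker in the files was no member. A part of other cell types in the differences below was not tested.

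SRSF1 differed between the clones, which was known beforehand and was the starting point of the comparison, so it is not a finding of it. It had 1991 counts in clone 41, 5645 in clone 47 and 1402 in the control, and its FPKM was 57.7 in clone 41, 195 in clone 47 and 43.6 in the control. It was thus 2.62-fold lower in clone 41 than in clone 47 (2.49 to 2.76), with clone 41 at 1.58 times and clone 47 at 4.14 times the control level. A count per gene shows neither the isoform behind the reads nor any reads of the human copy.

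At least 2-fold apart were 2122 genes, 20.9% of the members, with 886 higher in clone 41 (8.74%) and 1236 lower in clone 41 (12.2%). At least 4-fold apart were 634 genes (6.26%), 219 higher (2.16%) and 415 lower (4.1%) in clone 41, and at least 8-fold 204 genes (2.01%), 60 higher (0.592%) and 144 lower (1.42%). The median log2 ratio over all members was -0.02 and the SD over genes 1.00. The shares differed by level. Among genes with a mean below 1 CPM 60.1% were at least 2-fold apart, 20.1% higher and 39.9% lower in clone 41. Between 1 and 5 CPM the share was 45.8% (16.3% higher and 29.5% lower), between 5 and 20 CPM 23.3% (8.67% higher and 14.6% lower), between 20 and 100 CPM 9.68% (5.39% higher and 4.28% lower), and at 100 CPM or more 8.56% (5.55% higher and 3.01% lower). More genes were thus lower than higher in clone 41 in each class below 20 CPM, and fewer in both classes above it. Of the 7920 members with a mean of at least 5 CPM, 948 (12.0%) were at least 2-fold apart, 482 higher (6.09%) and 466 lower (5.88%) in clone 41. For 1331 of the 2122 genes the whole counting interval lay beyond 2-fold, and for 707 of the 948. Scaling by the total count alone moved the median of all genes to -0.16 and the split to 705 higher and 1497 lower.

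**Figure D1:**
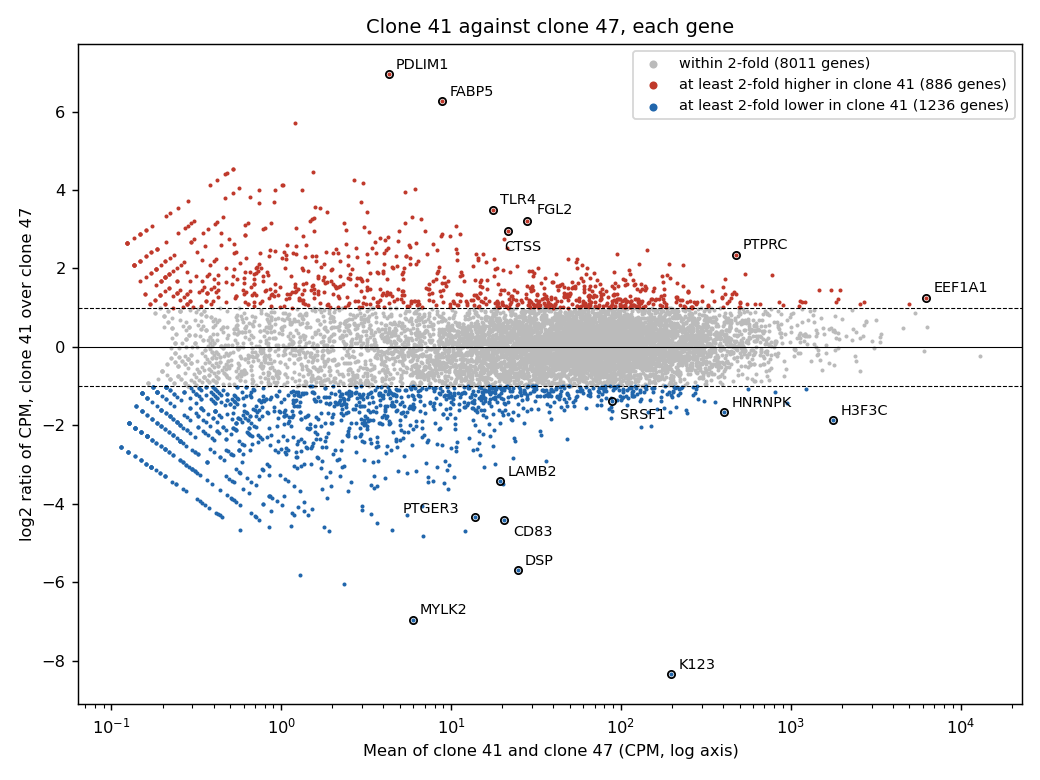
Each point is 1 of the 10133 members, with its mean CPM over the clones on a log axis and its log2 ratio of CPM, clone 41 over clone 47, on the vertical axis; dashed lines mark 2-fold. Points spread widest at the left, where counts are low, while K123 at -8.35, PTPRC at 2.35 and EEF1A1 at 1.25 stand apart at high counts.

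On the log2 scale the untransfected control lay nearer to clone 41 for 1564 of the 2122 genes (73.7%), against 66.6% of all members. Of the 2122 genes at least 2-fold apart, clone 41 was within 2-fold of the control in 1556 and clone 47 in 853. Over all members the same was true of 9298 genes in clone 41 and 8454 in clone 47. The control level lay between the clones for 70.7% of the genes apart and for 48.6% of all members. The genes apart were picked for a wide gap between the clones, which leaves more room for the control, so these shares are not like for like. Each comparison uses the same 1 control library.

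The genes furthest apart in favour of clone 41, among those with a mean of at least 5 CPM that were also 2-fold apart on FPKM, were led by FABP5, a fatty acid binding protein. FABP5 had 711 counts in clone 41, 8 in clone 47 and 557 in the control, a 96.1-fold difference (48.5 to 223), so that clone 47 was the library that stood apart. The Toll-like receptor gene TLR4, whose protein senses bacterial lipopolysaccharide, had 1314 counts in clone 41, 124 in clone 47 and 715 in the control and was 11.5-fold higher in clone 41 (9.52 to 13.9). FGL2, a fibrinogen-like protein secreted by immune cells, had 2057 counts in clone 41, 239 in clone 47 and 1068 in the control. CTSS, the lysosomal protease cathepsin S that trims the invariant chain of MHC class II, had 1549 in clone 41, 215 in clone 47 and 1098 in the control. In all 4 genes the control lay nearer to clone 41 than to clone 47.

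IL21R, the receptor for interleukin 21, had 389 counts in clone 41, 45 in clone 47 and 159 in the control, a ratio of 9.34 (6.85 to 13.0). The purinergic-type receptor gene P2RY10 had 437 counts in clone 41, 46 in clone 47 and 443 in the control, and ALOX5, the lipoxygenase that starts leukotriene synthesis, had 618 in clone 41, 93 in clone 47 and 609 in the control. ESRP2, a splicing regulator best known from epithelial cells, was 7.54-fold higher in clone 41 (6.04 to 9.51), with 628 counts in clone 41, 90 in clone 47 and 141 in the control, so clone 41 exceeded both other libraries. KCNMB1, an accessory subunit of the BK potassium channel, had 807 counts in clone 41, 117 in clone 47 and 823 in the control. Beyond these the rule took ARHGAP8, GTF2A1L, ZNF185, RFTN2, the transporter gene SLC41A3 and the unnamed A5HUM9_CHICK, with ratios of 7.19 to 17.4.

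In the other direction K123 dwarfed the rest. It had 47 counts in clone 41, 17193 in clone 47 and 10195 in the control, or 0.370 FPKM in clone 41, 164 in clone 47 and 95.6 in the control, and was 338-fold lower in clone 41 (254 to 461). Here clone 41 was the library that stood apart, while clone 47 was at 1.73 times the control. For most of the other genes lower in clone 41, clone 47 was the library further from the control. Clone 41 was also more than 2-fold below the control in some of them, at 0.249 times in DSP and 0.351 times in CD83. In others it was within 2-fold, such as LAMB2 at 0.632 times. DSP, the desmosomal protein desmoplakin, had 36 counts in clone 41, 2120 in clone 47 and 161 in the control, 54.5-fold lower in clone 41 (39.2 to 78.0). DRP2, a relative of dystrophin, had 35 counts in clone 41, 1023 in clone 47 and 127 in the control, and MYLK2, a kinase of muscle myosin light chains, had 2 in clone 41, 518 in clone 47 and 7 in the control. With only 2 counts in clone 41 the ratio of MYLK2, 240-fold lower, had a wide interval of 66.0 to 1984.

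CD83, a surface protein of activated B cells and dendritic cells, had 73 counts in clone 41, 1724 in clone 47 and 231 in the control and was 21.9-fold lower in clone 41 (17.3 to 28.0). PTGER3, a receptor for prostaglandin E2, had 51 counts in clone 41, 1156 in clone 47 and 184 in the control, 21.0-fold lower (15.8 to 28.3). RGS8, a regulator of G protein signalling, had 29 in clone 41, 557 in clone 47 and 75 in the control, and LAMB2, a laminin chain of basement membranes, 133 in clone 41, 1563 in clone 47 and 234 in the control. Clone 47 exceeded both other libraries in all 4. COL20A1, a collagen, was the exception in the group besides K123: with 48 counts in clone 41, 587 in clone 47 and 443 in the control, the control lay near clone 47. The remaining genes named here were KLHL33, MAMDC4, the flippase gene ATP8B3, the plasmin inhibitor gene SERPINF2, IFITM5 and the cadherin-related gene CDHR3, from 10.3-fold to 21.2-fold lower in clone 41.

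**Figure D2:**
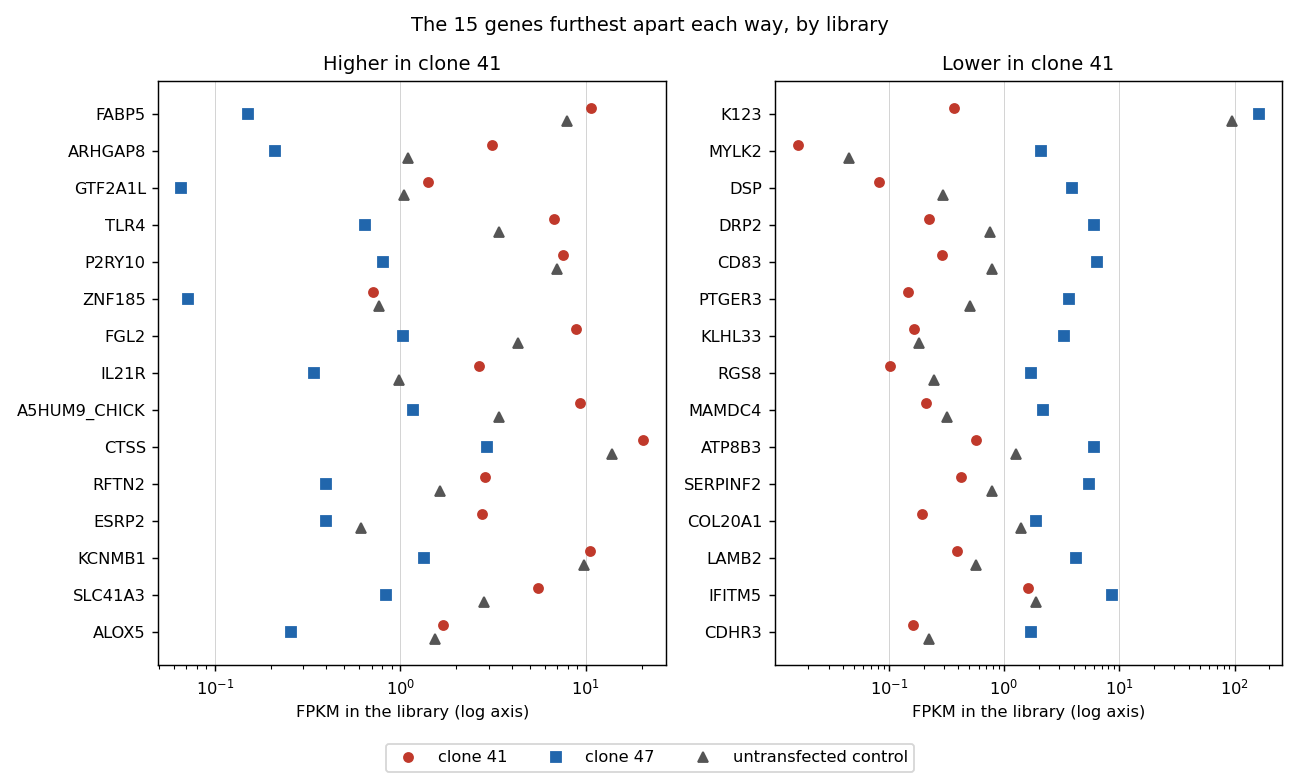
FPKM in clone 41 (circles), clone 47 (squares) and the untransfected control (triangles) on a log axis, for the 15 genes furthest apart in each direction by count. On the left the control lies close to clone 41 for FABP5, P2RY10, KCNMB1 and ALOX5 (1.70 FPKM in clone 41, 0.257 in clone 47 and 1.53 in the control). On the right clone 47 lies above the control and further from it than clone 41 for most genes, except K123 and COL20A1. Clone 41 lies below the control by varying amounts.

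Some genes were detected in 1 clone only at this depth: 23 members had 0 counts in clone 47 and 44 had 0 in clone 41. KCTD1 had 97 counts in clone 41, 0 in clone 47 and 100 in the control, at least 34.9-fold higher in clone 41 against a floor of 3 counts in the library; the lower end of its exact interval was 27.9. MILR1 and LEFTY2 had 42 counts each in clone 41 (at least 15.1-fold, lower end 11.8), the potassium channel gene KCNJ1 39 and PPP1R36 38. KCNIP2, a subunit that modulates potassium channels, had 0 counts in clone 41, 113 in clone 47 and 9 in the control, at least 34.9-fold lower in clone 41 (lower end of the interval 27.9). CCDC102A had 50 counts in clone 47, BAALC 39, TRIM25 38 and NEU2 37, each with 0 in clone 41, at least 11.4-fold to 15.4-fold lower by the floor, with lower ends of the interval from 8.83 to 12.1. The FPKM table gave TRIM25 0.131 in clone 41 and 0.491 in clone 47, and MILR1 0.946 in clone 41 and 0.220 in clone 47, and it also gave LEFTY2 0.175 in clone 47 and CCDC102A 0.0165 in clone 41. Those 4 genes were thus at 0 by count but not by FPKM, while the other 6 named here were listed at 0 in both tables.

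The most abundant transcripts by mean CPM were those of the mitochondrial genome and the translation machinery. COX1, a cytochrome oxidase subunit of the mitochondrial genome, stood at 6437 FPKM in clone 41, 7973 in clone 47 and 5306 in the control. EEF1A1, the elongation factor that brings tRNA to the ribosome, stood at 3812 FPKM in clone 41, 1701 in clone 47 and 3692 in the control, with 358687 counts in clone 41, 163199 in clone 47 and 367599 in the control, and was 2.38-fold higher in clone 41 (2.36 to 2.39). RPL4, a protein of the large ribosomal subunit, was 2.13-fold higher with 3980 FPKM in clone 41, 1963 in clone 47 and 3213 in the control. RPSA, COX3, PABPC1, CYTB, ATP6, COX2 and ND4 were within 2-fold. Intervals this narrow reflect the counts alone and say nothing of how much a second culture of either clone would differ.

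Genes were next grouped into 76 lists by function or family with at least 1 member, of which 73 had at least 10. The medians of 14 of these lay above 0.2 on the log2 scale and of 6 below -0.2, against the median of -0.02 over all members. No median beyond 0.2 changed sign with the scaling by total count or by DESeq2 size factors, with a smaller prior count or on FPKM. How many medians lie beyond 0.2 on each side does depend on the scaling. With scaling by total count the median of all members was -0.16 and list medians moved down with it. That of glycolysis went from 0.29 to 0.16, and that of the core spliceosome from -0.11 to -0.24. Lists overlap, and they were described by counts and medians only. Each list's shares are to be read beside the 8.74% higher and 12.2% lower of all members, and where genes of at least 5 CPM are given, beside 6.09% and 5.88%.

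**Figure D3:**
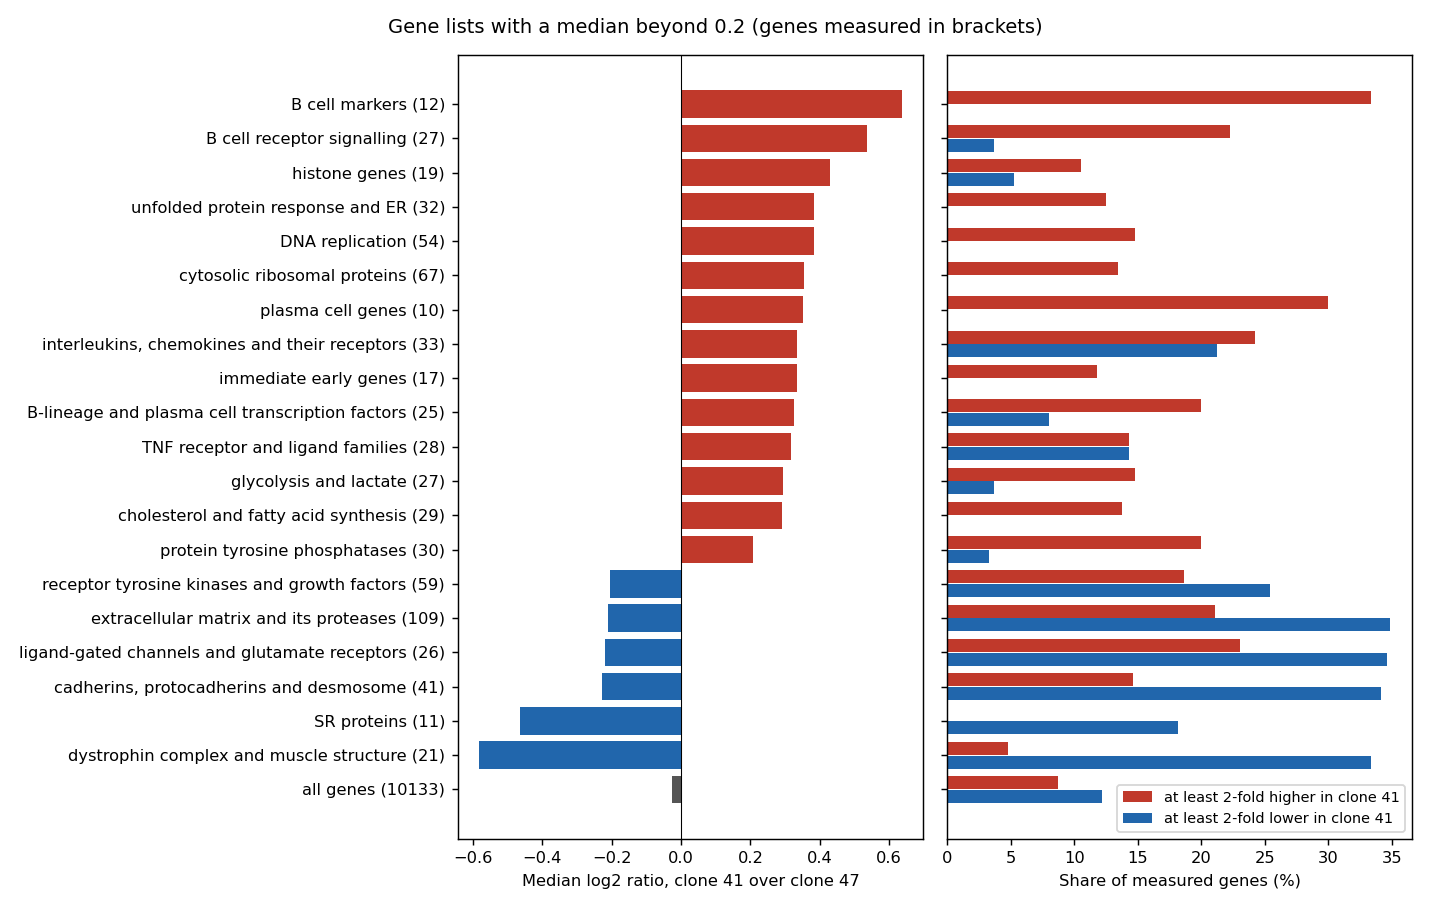
Left, the median log2 ratio (clone 41 over clone 47) of the 20 lists of at least 10 genes with a median beyond 0.2; right, the percentage of their measured genes at least 2-fold higher or lower in clone 41. The bottom row gives all 10133 members, with a median of -0.02 and shares of 8.74% and 12.2%; B cell markers are at 0.64 and muscle structure genes at -0.58.

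Splicing factors were examined first, since the clones differ in SRSF1. All 11 SR protein genes were measured; 0 passed 2-fold upwards and 2 were at least 2-fold lower in clone 41, and 8 lay below 0, with a median of -0.46. SRSF4, besides SRSF1 the other one past 2-fold, had 672 counts in clone 41, 1654 in clone 47 and 1148 in the control, 2.28-fold lower in clone 41. SRSF10, a repressor of splicing after heat shock, was 1.66-fold lower. SRSF3, the smallest SR protein, pointed the other way, with 16173 counts in clone 41, 10106 in clone 47 and 17822 in the control, 1.73-fold higher in clone 41. The genes thus differed in both directions, and SRSF1 itself is among the 11 genes behind the median.

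The kinases that phosphorylate SR proteins differed in both directions, with 4 of 10 genes above 0 and 6 below. Those named here are the 4 furthest apart, so they do not show how either family behaved as a whole. CLK1, CLK3 and CLK4, of the nuclear CLK family, were 1.85-fold, 1.67-fold and 2.19-fold lower in clone 41, and CLK4 had 2025 counts in clone 41, 4798 in clone 47 and 2434 in the control. SRPK1, of the mainly cytoplasmic SRPK family, was 1.84-fold higher, with 8590 counts in clone 41, 5032 in clone 47 and 8870 in the control. Only CLK4 of the 10 kinases passed 2-fold, and the median was -0.05.

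Among 39 hnRNPs and other splicing regulators 5 were at least 2-fold higher (12.8%) and 6 lower (15.4%) in clone 41, beside 8.74% and 12.2% of all members. ESRP2, described above, is one of the 5. PTBP2, the neuronal form of the polypyrimidine tract binding protein, had 2423 counts in clone 41, 10619 in clone 47 and 2973 in the control, 4.06-fold lower (3.88 to 4.24). HNRNPK, a poly(C)-binding hnRNP, had 7867 counts in clone 41, 26889 in clone 47 and 10691 in the control, 3.16-fold lower (3.08 to 3.24). In both the control lay close to clone 41. The files also list HNRPK, an older symbol of the same protein, as a separate gene, with 29394 counts in clone 41, 26230 in clone 47 and 30546 in the control (log2 ratio 0.28), so how reads were divided between these entries bears on the value of HNRNPK. At 5 CPM or more 4 of the 33 hnRNPs and regulators were higher and 4 lower. Of the 55 core spliceosome genes 0 were higher by 2-fold and 5 lower, among them PRPF38B at 4717 counts in clone 41, 12298 in clone 47 and 6124 in the control and SNRNP40, a U5 snRNP protein, at 3398 in clone 41, 8232 in clone 47 and 3613 in the control. The list's median was -0.11.

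Exon junction complex genes, whose proteins are laid down on mRNA by splicing, and nonsense-mediated decay genes numbered 15, of which 13 were within 2-fold and 2 lower in clone 41. RNPS1, which binds this complex, was 2.67-fold lower in clone 41 (2.60 to 2.74), at 7916 counts in clone 41, 22843 in clone 47 and 9223 in the control. MAGOH2, a core subunit, was 2.30-fold lower, while UPF1, the helicase of nonsense-mediated decay, was 1.81-fold higher with 29921 counts in clone 41, 17892 in clone 47 and 29878 in the control. UPF1 is one of the 13. DEAD and DEAH box helicases, 39 genes, had 2 higher and 1 lower, with DDX54 at 2.94-fold higher and DHX58, an RNA sensor with 13 and 100 counts in clone 41 and clone 47, at 7.12-fold lower.

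B cell genes were higher in clone 41 in the median. All 12 B cell markers were measured, 4 at least 2-fold higher and 0 lower in clone 41, with a median of 0.64. Of the 12, 9 lay above 0 and 3 below, the lowest at -0.19. PAX5 and CD79B, given above, had fewer counts in clone 41 than in clone 47. BLNK, the adaptor that links the kinase SYK to its targets, had 6387 counts in clone 41, 3075 in clone 47 and 6756 in the control, 2.24-fold higher (2.15 to 2.34). LYN, a kinase that starts B cell receptor signalling, had 5470 in clone 41, 2783 in clone 47 and 5847 in the control, and IRF8, a B cell transcription factor, 15241 in clone 41, 7673 in clone 47 and 15169 in the control. In these 3 the control nearly matched clone 41.

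Signalling downstream of the receptor followed the same order. Of 27 B cell receptor signalling genes 6 were at least 2-fold higher and 1 lower in clone 41, with a median of 0.53, and against the control the median was -0.04 in clone 41 and -0.68 in clone 47. PIK3CD, the lymphocyte form of PI3-kinase, had 5210 counts in clone 41, 2261 in clone 47 and 6596 in the control, and CD81, a partner of the B cell co-receptor, 4039 in clone 41, 1747 in clone 47 and 3368 in the control. LCP2, an adaptor, had 116 in clone 41, 11 in clone 47 and 88 in the control. BCL10, which links the receptor to NF-kB, was the 1 gene at least 2-fold lower, with 1906 counts in clone 41, 4721 in clone 47 and 2175 in the control. PTPRC, the leukocyte phosphatase CD45 that sets the threshold of antigen receptors, was 5.09-fold higher in clone 41 (4.96 to 5.23), with 32078 counts in clone 41, 6808 in clone 47 and 27837 in the control. It is 1 of 30 protein tyrosine phosphatase genes, of which 6 were higher and 1 lower, with a median of 0.21.

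Transcription factors of the B lineage were mixed. Of 25 genes 5 were at least 2-fold higher and 2 lower in clone 41, with a median of 0.33. IRF4, which drives germinal centre and plasma cell programmes, had 1752 counts in clone 41, 671 in clone 47 and 2649 in the control, and PRDM1, the plasma cell factor BLIMP1, had 215 in clone 41, 101 in clone 47 and 338 in the control, so both were highest in the control. RUNX1, a factor of early blood development, was 3.50-fold lower in clone 41 (3.31 to 3.71), with 1562 counts in clone 41, 5912 in clone 47 and 1952 in the control, and RUNX3 was 3.00-fold lower with 161 in clone 41, 522 in clone 47 and 251 in the control. Plasma cell genes, 10 measured, had 3 higher and 0 lower. The 3 were SDC1 and, counted in both lists, IRF4 and PRDM1. SDC1, the surface marker CD138, had 1799 counts in clone 41, 668 in clone 47 and 1147 in the control. JCHAIN, the immunoglobulin joining chain, was within 2-fold, 1.56-fold higher in clone 41. It had 67836 counts in clone 41, 47039 in clone 47 and 110424 in the control.

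Innate receptors divided. Of 18 Toll-like receptor and adaptor genes 6 were at least 2-fold higher (33.3%) and 3 lower (16.7%) in clone 41, with a median of -0.01. At 5 CPM or more 3 of 12 were higher and 2 lower, with a median of -0.28. The receptors TLR2B, TLR5 and TLR7 were 6.03-fold, 4.02-fold and 3.62-fold higher in clone 41, beside TLR4; TLR7, a sensor of single-stranded RNA, had 736 counts in clone 41, 220 in clone 47 and 580 in the control. The 3 lower genes were CD14, a co-receptor with 8 counts in clone 41, 39 in clone 47 and 18 in the control, the kinase gene IRAK2 with 3322 in clone 41, 10744 in clone 47 and 4898 in the control, and TLR21, a receptor for CpG DNA, with 451 in clone 41, 1017 in clone 47 and 497 in the control. Among 19 NF-kB genes 1 was higher and 4 lower, and with at least 5 CPM 0 and 4 of 18. TNFAIP3, the inhibitor A20, had 190 counts in clone 41, 722 in clone 47 and 333 in the control, and NFKBIE, another inhibitor and target of the pathway, 291 in clone 41, 1093 in clone 47 and 455 in the control. Both lay below the control in clone 41 and above it in clone 47, as CD83 did. The chemokine gene CCL5, counted in the same list, went the other way with 239 in clone 41, 22 in clone 47 and 119 in the control.

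Of 28 interferon response genes 3 were at least 2-fold higher and 9 lower in clone 41, but 13 of the 28 had a mean below 5 CPM, where genes lower in clone 41 were common among all members. DTX3L, a ubiquitin ligase, had 25 counts in clone 41, 282 in clone 47 and 56 in the control. IFITM5 is counted here as a member of the IFITM family, and its response to interferon was not tested. It had 53 counts in clone 41, 628 in clone 47 and 80 in the control. EIF2AK2, the kinase PKR that senses double-stranded RNA, had 11 in clone 41, 84 in clone 47 and 51 in the control. With at least 5 CPM, 1 of 15 genes was higher and 1, IFITM5, was lower. Interleukin, chemokine and receptor genes, 33 measured of 69 in the files, had 8 higher and 7 lower, and 1 on each side among the 9 of at least 5 CPM. The chemokine gene CCL20 was 10.1-fold lower in clone 41 (5.10 to 22.7), with 9 in clone 41, 98 in clone 47 and 25 in the control.

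The list of TNF receptor and ligand families had 4 of 28 genes on each side, and at 5 CPM or more 2 of 18 higher and 0 lower. It also holds genes that are neither receptors nor ligands, with TRAF3IP3 among those higher and TRAF3IP2 among those lower. TNFRSF18, the co-stimulatory receptor GITR, had 223 counts in clone 41, 27 in clone 47 and 261 in the control, and TRAF3IP3, an adaptor, 4087 in clone 41, 1304 in clone 47 and 4243 in the control. TNFRSF6B, a decoy receptor, was 24.5-fold lower in clone 41 (9.30 to 91.6) on 4 counts in clone 41, 106 in clone 47 and 5 in the control. In each of these 3 genes clone 47 was the library away from the control. Antigen presentation genes, 14 measured, had 3 on each side, and at 5 CPM or more 2 higher and 1 lower of 7; DMA, a chaperone of MHC class II, had 691 counts in clone 41, 343 in clone 47 and 886 in the control, and BLB1, a class II beta chain whose reads may be shared with its paralogue, was 1.96-fold lower in clone 41.

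Ribosomal protein genes were higher in clone 41 in the median, by less than 2-fold. All 67 cytosolic ribosomal protein genes were measured: 9 were at least 2-fold higher and 0 lower, 55 lay above 0, and the median was 0.35. Their summed level was 99497 CPM in clone 41, 70690 in clone 47 and 82798 in the control. RPS29, of the small subunit, was 3.59-fold higher in clone 41 (3.46 to 3.73), at 11772 counts in clone 41, 3542 in clone 47 and 8098 in the control, and RPL8 and RPL3, of the large subunit, were 2.73-fold higher each. Against the control the median was 0.31 in clone 41 and -0.10 in clone 47. Reads of ribosomal protein genes may be shared with processed copies, which the counts cannot show.

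Translation factors differed in both directions: of 54 genes 8 were higher and 6 lower in clone 41 (8 and 4 of 52 at 5 CPM or more), and the median of 0.08 turned to -0.05 with scaling by total count. The elongation factor EEF1B2 was 2.74-fold higher, at 86614 counts in clone 41, 34180 in clone 47 and 69254 in the control, and EIF3H, a subunit of initiation factor eIF3, 2.95-fold higher at 14113 in clone 41, 5176 in clone 47 and 18468 in the control. EEF1A2, the tissue-restricted paralogue of EEF1A1, was 4.40-fold lower in clone 41, at 48 counts in clone 41, 228 in clone 47 and 107 in the control. Mitochondrial ribosomal proteins had 3 higher and 2 lower of 59, and none of the 31 tRNA synthetases was 2-fold apart, with KARS at 1.84-fold higher and AARS2 at 1.94-fold lower in clone 41.

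Growth genes upstream of translation differed in single cases. Of 33 MYC and nucleolar genes 3 were higher (9.09%) and 1 lower (3.03%) in clone 41, beside 8.74% and 12.2% of all members. The higher share was thus near that of all members. The list's median was 0.14, and 0.01 with scaling by total count. NPM1, the nucleolar chaperone nucleophosmin, had 141321 counts in clone 41, 71035 in clone 47 and 112820 in the control, CAD, the enzyme that starts pyrimidine synthesis, 23674 in clone 41, 10120 in clone 47 and 19797 in the control, and BOP1, a factor of ribosome assembly, 6937 in clone 41, 3206 in clone 47 and 6778 in the control. MXD3, a partner of MAX that competes with MYC, was 2.73-fold lower, at 448 in clone 41, 1324 in clone 47 and 621 in the control. Clone 47 was the library further from the control in all 4.

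Endoplasmic reticulum and lipid genes were higher in clone 41 in the median. Of 32 genes of the unfolded protein response and the endoplasmic reticulum 4 were at least 2-fold higher and 0 lower in clone 41, with a median of 0.38. SEL1L, of the machinery that degrades misfolded proteins, had 8200 counts in clone 41, 3239 in clone 47 and 6121 in the control. PDIA4, a protein disulfide isomerase, had 26278 in clone 41, 11218 in clone 47 and 23500 in the control, and EIF2AK3, the stress sensor PERK, 5680 in clone 41, 2749 in clone 47 and 5716 in the control. Of 29 genes of cholesterol and fatty acid synthesis 4 were higher and 0 lower, with a median of 0.29. SCD, the stearoyl-CoA desaturase, had 11029 counts in clone 41, 3423 in clone 47 and 11550 in the control, SREBF1, a master regulator of lipid synthesis, 6424 in clone 41, 2107 in clone 47 and 5217 in the control, and INSIG1, which retains SREBP proteins in the endoplasmic reticulum, 7376 in clone 41, 2884 in clone 47 and 5935 in the control. The medians against the control were -0.03 in clone 41 and -0.37 in clone 47 for the lipid list.

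Glycolysis genes had a median of 0.29, with 4 of 27 higher and 1 lower in clone 41. ALDOC, an aldolase, was 3.57-fold higher (3.51 to 3.64), with 49319 counts in clone 41, 14925 in clone 47 and 42451 in the control, and the glucose transporter gene SLC2A1 was 2.99-fold higher with 2660 in clone 41, 962 in clone 47 and 2438 in the control. PFKFB3, which makes an activator of glycolysis, was 2.18-fold lower in clone 41. Nuclear genes of the respiratory chain, 71 measured, had 2 on each side and a median of -0.08, and the 13 genes of the mitochondrial genome were all within 2-fold. Of 90 genes of amino acid, one-carbon and nucleotide metabolism 12 were higher and 11 lower, and at 5 CPM or more 10 and 4 of 78; ATIC, of purine synthesis, had 15258 counts in clone 41, 3863 in clone 47 and 12255 in the control.

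**Figure D4:**
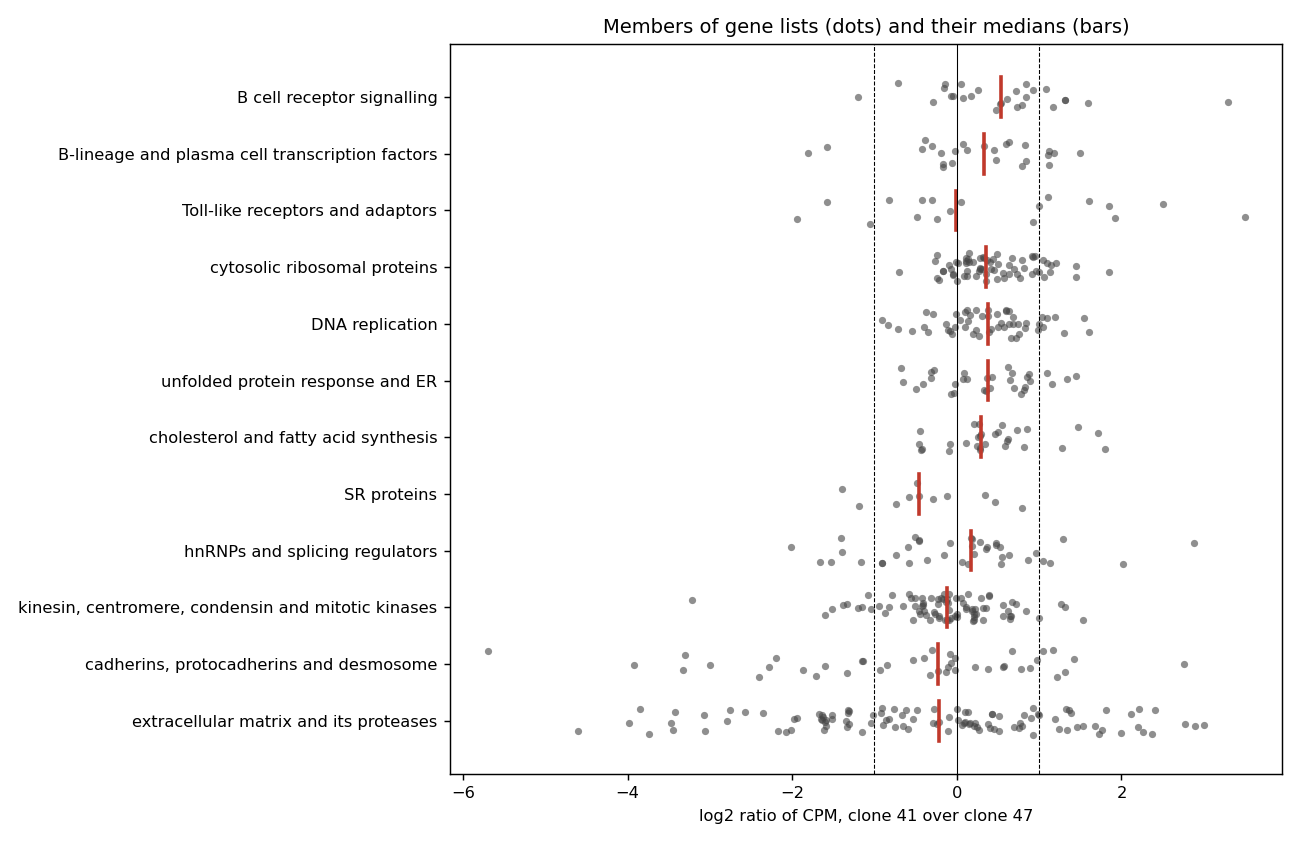
Each dot is 1 measured gene of 12 lists, placed by its log2 ratio of CPM (clone 41 over clone 47), and each bar is the list's median; dashed lines mark 2-fold. Most ribosomal protein, replication and endoplasmic reticulum genes lie above 0 (medians of 0.35, 0.38 and 0.38), with some below 0 and some past 2-fold. Toll-like receptor, cadherin and matrix genes spread widely on both sides.

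DNA replication genes were higher in clone 41 in the median. Of 54 replication genes 8 were at least 2-fold higher and 0 lower, 40 lay above 0, and the median was 0.38. POLD2, a subunit of DNA polymerase delta, had 7376 counts in clone 41, 2614 in clone 47 and 5966 in the control, CDC6, which loads the replicative helicase, 1807 in clone 41, 667 in clone 47 and 1558 in the control, and MCM6, a subunit of that helicase, 9967 in clone 41, 4369 in clone 47 and 9680 in the control. The control was near clone 41 in each, and the list's medians against it were 0.08 in clone 41 and -0.36 in clone 47.

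Of 83 kinesin, centromere, condensin and mitotic kinase genes 3 were higher (3.61%) and 9 lower (10.8%) in clone 41, both below the shares of all members, with a median of -0.12. At 5 CPM or more 1 of 73 was higher and 8 were lower. PTTG1, the mitotic protein securin, had 1114 counts in clone 41, 3435 in clone 47 and 1338 in the control, and BUB1, a kinase of the spindle checkpoint, 3889 in clone 41, 10939 in clone 47 and 5773 in the control. CCNB3, a B-type cyclin, was 3.05-fold lower in clone 41 (2.95 to 3.15), at 4842 counts in clone 41, 15962 in clone 47 and 7978 in the control, and CCNA2, cyclin A2, 2.18-fold lower at 4434 in clone 41, 10428 in clone 47 and 7172 in the control. CCNB3, CCNA2 and BUB1 lay below the control in clone 41 and above it in clone 47. The wider list of 65 cyclin, CDK and E2F genes had 4 higher and 5 lower, and 1 and 5 of 62 at 5 CPM or more.

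Of 33 genes of recombination and gene conversion 5 were higher (15.2%) and 0 lower in clone 41, among them XRCC2, a recombination factor, at 600 counts in clone 41, 309 in clone 47 and 627 in the control, and EXO1, a resection nuclease, at 3340 in clone 41, 1753 in clone 47 and 3231 in the control. The list's median was 0.13, and -0.002 with scaling by total count. None of 27 Fanconi anaemia and translesion synthesis genes was 2-fold apart in either direction. LIG4, the ligase of end joining, was the 1 gene of 19 past 2-fold in that list, 2.22-fold lower in clone 41. Of 26 p53 target and damage response genes 3 were higher (11.5%) and 4 lower (15.4%), with GADD45A, a stress-induced growth inhibitor, at 1723 counts in clone 41, 5839 in clone 47 and 2164 in the control and FAS, the death receptor, at 159 in clone 41, 50 in clone 47 and 158 in the control. Of 31 BCL2 family and caspase genes 1 was higher (3.23%) and 3 lower (9.68%) in clone 41, beside 8.74% and 12.2% of all members. At 5 CPM or more 1 of 27 was higher and 0 lower, and the list's median was -0.06. The higher gene was BCL2L1, the survival protein BCL-xL, 2.50-fold higher at 3769 counts in clone 41, 1632 in clone 47 and 4883 in the control.

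Among histone genes, H3F3C, a gene for histone H3.3, had 30813 counts in clone 41, 121857 in clone 47 and 34413 in the control and was 3.66-fold lower in clone 41 (3.61 to 3.71), with 584 FPKM in clone 41, 2261 in clone 47 and 606 in the control. HIST1H3H, a replication-dependent H3 gene, was 3.20-fold higher with 590 counts in clone 41, 199 in clone 47 and 664 in the control, and of all 19 histone genes 2 were higher and 1 lower. Reads of such near-identical copies may have been split between genes. The 12 chaperones of H3.3 were all within 2-fold. Among 145 chromatin genes 8 were on each side (5.52%), beside 8.74% higher and 12.2% lower of all members. The list's median was -0.12, with 60 genes above 0 and 85 below, and those named here are all from the higher side. SMARCC1, a core subunit of the SWI/SNF remodeller, was 3.62-fold higher in clone 41 (3.54 to 3.70). Its counts were 34159 in clone 41, 10199 in clone 47 and 28225 in the control. SMARCD2, another subunit, was 2.70-fold higher at 7646 in clone 41, 3064 in clone 47 and 9550 in the control. KDM1A, a histone demethylase, was 3.02-fold higher. In both SMARC genes the control lay nearer to clone 41.

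Transcription factors outside the B lineage differed in both directions. PPARG, a nuclear receptor of lipid metabolism, had 4071 counts in clone 41, 1093 in clone 47 and 2880 in the control, and STAT4, which relays interleukin signals, 1200 in clone 41, 275 in clone 47 and 487 in the control. Both belong to 75 nuclear receptor, AP-1, ETS and STAT genes, of which 10 were higher and 6 lower (6 and 2 of 53 at 5 CPM or more). The zinc finger gene KLF17 was 29.3-fold lower in clone 41 (16.6 to 57.2), on 12 counts in clone 41, 380 in clone 47 and 28 in the control, within 147 zinc finger genes of which 6 were higher and 12 lower (2 and 7 of 125 at 5 CPM or more).

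Genes of cell contact and matrix spread widely. Of 41 cadherin, protocadherin and desmosome genes 6 were at least 2-fold higher and 14 lower in clone 41, with a median of -0.23, and against the control the median was 0.12 in clone 41 and 0.79 in clone 47. With a mean of at least 5 CPM, 4 of 21 were higher (19.0%) and 5 lower (23.8%), beside 6.09% and 5.88% of all members at that level, and the median was -0.07. Beside DSP, the cadherin-related genes CDHR3 and CDHR4 had 75 and 53 counts in clone 41, 834 and 585 in clone 47 and 110 and 147 in the control, and CDH1, E-cadherin, had 1 in clone 41, 45 in clone 47 and 9 in the control.

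Matrix genes and their proteases, 109 measured of 169 in the files, had 23 higher and 38 lower, or 21.1% and 34.9%, beside 8.74% and 12.2% of all members. The list was built from symbol families and so also holds CSTF1, a cleavage factor of mRNA 3' ends. LAMB2 is described above, and TNR, a tenascin of the nervous system, was 35.2-fold lower in clone 41 (13.5 to 131), on 4 counts in clone 41, 152 in clone 47 and 13 in the control. At 5 CPM or more 8 of 43 were higher (18.6%) and 11 lower (25.6%), beside 6.09% and 5.88% of all members, and the median was -0.001.

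Muscle and cytoskeletal genes differed in both directions. Of 21 genes of the dystrophin complex and muscle structure 1 was higher (4.76%) and 7 lower (33.3%) in clone 41, with a median of -0.58. All members had 8.74% higher and 12.2% lower. Among the 14 with at least 5 CPM 1 was higher and 4 lower, with a median of -0.50. On FPKM the median of the whole list was -0.35. DMD, dystrophin, had 695 counts in clone 41, 1972 in clone 47 and 584 in the control, 2.63-fold lower in clone 41 (2.41 to 2.87), and its binding partner SNTB2 had 216 in clone 41, 560 in clone 47 and 242 in the control. MYOM1, a protein of the sarcomere, was 2.59-fold higher with 859 in clone 41, 359 in clone 47 and 752 in the control. Of 126 actin and myosin genes 22 were on each side, and at 5 CPM or more 15 of 86 were higher and 8 lower, with a median of 0.39 (0.15 over the whole list). PDLIM1, a LIM protein on actin fibres, had 347 counts in clone 41, 1 in clone 47 and 73 in the control, a ratio of 375 with an interval of 66.9 to 14854, and TMOD2, which caps actin filaments, had 224 in clone 41, 17 in clone 47 and 182 in the control.

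Receptors and channels of the cell surface differed in both directions, many of them on few counts. Of 108 G protein-coupled receptor genes measured of 196 in the files, 30 were higher and 25 lower, or 27.8% and 23.1%, beside 8.74% and 12.2% of all members. Only 36 of the 108 had at least 5 CPM, with 5 on each side (13.9%). GPR18 had 80 counts in clone 41, 3 in clone 47 and 65 in the control, a ratio of 28.8 (9.51 to 143), and P2RY10 belongs to this family too. Of 33 potassium channel genes 9 were higher and 8 lower (3 on each side of 12 at 5 CPM or more): KCNQ3, a channel of neurons, had 86 counts in clone 41, 14 in clone 47 and 2 in the control, and KCNK12 70 in clone 41, 439 in clone 47 and 304 in the control. Ligand-gated channels, 26 measured, had 6 higher and 9 lower (1 on each side of 5 at 5 CPM or more), with CHRNB2, a subunit of the nicotinic acetylcholine receptor, at 273 in clone 41, 1169 in clone 47 and 564 in the control.

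Receptor tyrosine kinases and growth factors, 59 measured, had 11 higher and 15 lower in clone 41 (2 and 4 of 27 at 5 CPM or more) and a median of -0.21. MST1R, the receptor RON for macrophage stimulating protein, was 8.06-fold lower (6.84 to 9.54), with 161 counts in clone 41, 1402 in clone 47 and 163 in the control, and ERBB2, a receptor of the EGF receptor family, 5.01-fold lower with 91 in clone 41, 493 in clone 47 and 193 in the control. HGF, a growth factor for the MET receptor, was 4.39-fold higher with 378 in clone 41, 93 in clone 47 and 510 in the control. For MST1R and HGF clone 47 was the library further from the control, while for ERBB2 clone 41 was at 0.524 times and clone 47 at 2.63 times the control. In the Wnt, Notch and Hedgehog list, with 5 of 50 higher and 10 lower (1 on each side of 31 at 5 CPM or more), GLI3, a transcription factor of Hedgehog signalling, had 252 counts in clone 41, 41 in clone 47 and 222 in the control and FZD2, a Wnt receptor, 72 in clone 41, 303 in clone 47 and 153 in the control.

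Transporters were described by family. Of 203 solute carrier genes measured of 258 in the files, 28 were higher and 40 lower in clone 41. SLC45A3 had 338 counts in clone 41, 2786 in clone 47 and 882 in the control, and SLC6A13, a carrier of the inhibitory transmitter GABA, 76 in clone 41, 742 in clone 47 and 126 in the control. At 5 CPM or more 18 of 147 were higher and 12 lower, the opposite order. Of 65 ABC transporters and ATPase pumps 9 were higher and 6 lower; ATP2A3, a calcium pump of blood cells, had 2091 counts in clone 41, 563 in clone 47 and 2965 in the control. Redox and detoxification enzymes, 115 measured, had 12 higher and 23 lower, and at 5 CPM or more 7 and 9 of 76, where the median of -0.12 became 0.05, with HSD17B2, which inactivates sex steroids, at 11 counts in clone 41, 309 in clone 47 and 33 in the control and ADH1C, an alcohol dehydrogenase, at 12 in clone 41, 247 in clone 47 and 79 in the control.

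Signalling and trafficking families added single genes. Of 69 MAP kinase cascade genes 3 were higher (4.35%) and 6 lower (8.70%) in clone 41, and at 5 CPM or more 2 and 1 of 53. Of 86 G protein subunits and regulators 7 were higher (8.14%) and 13 lower (15.1%), and at 5 CPM or more 3 and 7 of 57. GNG12, a G protein gamma subunit, had 95 counts in clone 41, 541 in clone 47 and 64 in the control, and PDE8A, which breaks down cyclic AMP, 115 in clone 41, 749 in clone 47 and 214 in the control, so both exceeded the control in clone 47. Of 175 RAB, SNARE and sorting nexin genes 8 were higher and 15 lower (4 and 5 of 150 at 5 CPM or more), with the sorting nexin gene SNX21 at 17 in clone 41, 577 in clone 47 and 39 in the control. Phospholipase and lipid binding genes had 18 of 114 higher and 9 lower (8 and 5 of 79 at 5 CPM or more), with a median of 0.08 that became -0.05 with scaling by total count. PLD4, a nuclease of endolysosomes named for its phospholipase D fold, had 1063 in clone 41, 257 in clone 47 and 1033 in the control.

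Lists of developmental and junction genes held genes on each side. Of 67 homeobox, SOX, FOX, GATA and related transcription factor genes 10 were higher (14.9%) and 12 lower (17.9%) in clone 41. At 5 CPM or more 3 of 41 were higher (7.32%) and 1 lower (2.44%), beside 6.09% and 5.88% of all members. TBX6, a T-box factor of the mesoderm, had 2422 counts in clone 41, 826 in clone 47 and 3041 in the control, and NEUROD6, a factor of neurons, 600 in clone 41, 1654 in clone 47 and 751 in the control. Of 41 TGF-beta and BMP genes 9 were higher and 7 lower (3 and 1 of 21 at 5 CPM or more), with FSTL5, a follistatin-like protein, at 175 in clone 41, 22 in clone 47 and 423 in the control. Integrin genes and their partners, 23 measured, had 2 higher (8.70%) and 4 lower (17.4%), beside 8.74% and 12.2% of all members. PARVB, an adaptor of focal adhesions, had 290 counts in clone 41, 46 in clone 47 and 102 in the control. FERMT1, the integrin activator kindlin, had 132 in clone 41, 608 in clone 47 and 269 in the control. Tight and gap junction genes, 27 measured, had 5 higher (18.5%) and 4 lower (14.8%). Among the lower was the channel-forming gene PANX3, with 491 counts in clone 41, 2374 in clone 47 and 694 in the control. Of 229 tubulin, microtubule, intermediate filament and cilium genes 14 were higher (6.11%) and 27 lower (11.8%). GFAP, an intermediate filament of glia, was lower, with 221 in clone 41, 1114 in clone 47 and 288 in the control. Immediate early genes, 17 measured, had 2 higher and 0 lower and a median of 0.33, with BTG2, a growth inhibitor, at 1957 in clone 41, 1014 in clone 47 and 1980 in the control.

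Several lists had no gene 2-fold apart. Besides the tRNA synthetases, H3.3 chaperones, Fanconi anaemia genes and mitochondrial genome these were the 34 proteasome genes, with PSMA3 at 1.98-fold higher in clone 41, and the 36 genes of transcription elongation and topoisomerases, with TCEA1 at 1.94-fold higher and SUPT4H1 at 1.75-fold lower. Among 76 heat shock, DNAJ and chaperonin genes 3 were higher (3.95%) and 6 lower (7.89%), and at 5 CPM or more 2 of 65 were higher and 0 lower, with a median of 0.18. HSP90AB1, a cytosolic HSP90, had 22377 counts in clone 41, 10234 in clone 47 and 22360 in the control, while BAG3, a co-chaperone induced by stress, had 12 in clone 41, 284 in clone 47 and 3 in the control.

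Genes that lie next to each other in the genome were then compared, using only the gene order of the RefSeq annotation of assembly GRCg7b, which is not the build of the files. It placed 9667 members, and windows of 50 consecutive members had medians from -0.70 to 0.70, with 5% of windows below -0.40 and 5% above 0.31. The window that begins at YTHDF1 had the lowest median, -0.70, with 42 of its 50 genes below 0 and 20 at least 2-fold lower in clone 41. It holds the longest run of neighbours on 1 side of 2-fold, the 6 genes COL20A1, EEF1A2, PPDPF, SRMS, PXDNL and PCMTD2, and also MYLK2, TNFRSF6B and STMN3, while BCL2L1 in the same window was higher in clone 41. Of the 4 lowest windows that do not overlap 3 lay on this chromosome, the others running from DNTTIP1 to ZFP64 (median -0.63) and from FAM83C to SERINC3 (median -0.55, with EIF2S2, E2F1, MYH7B and ADA among the genes lower in clone 41).

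That chromosome, named here by its most abundant members EIF2S2 and YWHAB, had the lowest median of the 29 chromosomes with at least 50 members. Its 242 members had a median of -0.49, 176 were below 0, and 9 were at least 2-fold higher and 65 lower in clone 41. Against the control the median was -0.22 in clone 41, with 205 genes below the control, and 0.23 in clone 47, with 94 below it. At the other end, the chromosome of ENO1 and YBX1 had 170 members with a median of 0.42, 36 higher and 12 lower in clone 41. There the medians against the control were 0.02 in clone 41 and -0.43 in clone 47. Its window from SDF4 to UBR4, with TNFRSF18, PIK3CD and GPR157, had the highest median, 0.70. In that window 43 of 50 genes lay below the control in clone 47 against 19 in clone 41. Shifts from the control were not confined to these chromosomes. The chromosome of RPS3A and RPL9 had a median against the control of -0.38 in clone 41, with 602 of 696 members below it, and -0.13 in clone 47.

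**Figure D5:**
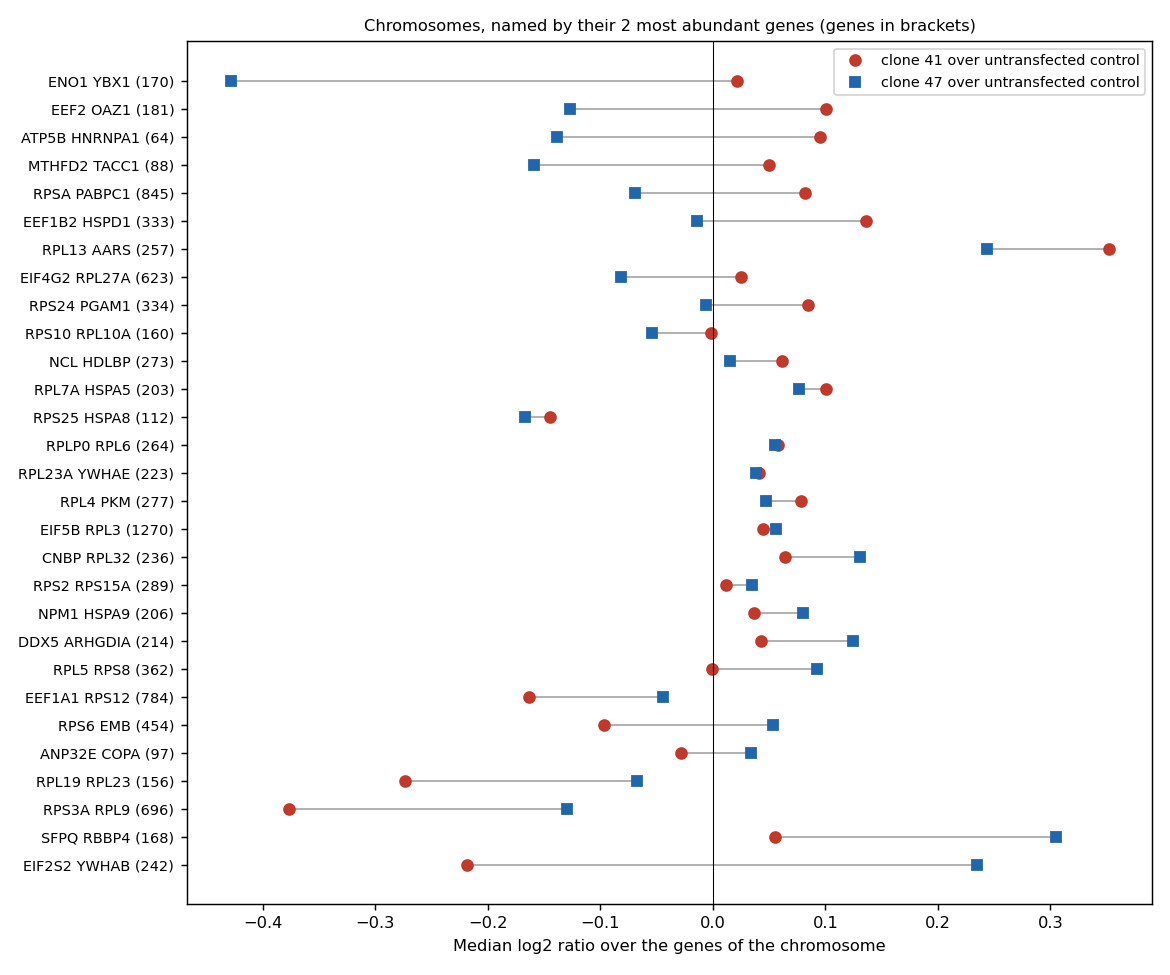
Median log2 ratio to the untransfected control of the members on each of 29 chromosomes, for clone 41 (circles) and clone 47 (squares), with each chromosome named by its most abundant members and the number of members in brackets, and chromosomes ordered by the median of clone 41 over clone 47. At the top clone 47 is at -0.43 for ENO1 and YBX1, and at the bottom the clones lie on opposite sides of 0, at -0.22 and 0.23. Chromosomes between the ends also lie off 0, such as RPL13 and AARS at 0.35 in clone 41 and 0.24 in clone 47.

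K123 sat in the remaining low window, from TNPO3 to DMTF1, with a median of -0.66 and 44 of 50 genes below 0. Below the control lay 45 of these genes in clone 41 (median -0.55) and 23 in clone 47 (median 0.04). The run of DHTKD1, SEC61A2, NUDT5, CDC123 and OPTN, all at least 2-fold lower in clone 41, belongs to it. DHTKD1 had 106 counts in clone 41, 662 in clone 47 and 252 in the control, and OPTN, an autophagy receptor, 1059 in clone 41, 3016 in clone 47 and 2114 in the control. The neighbours of K123 differed far less than K123 itself: MKLN1 and CHCHD3 on one side were 1.55-fold and 1.93-fold lower in clone 41, and PFKFB3 on the other 2.18-fold lower. Among the high windows, that from STON2 to EVL (median 0.51) holds SEL1L and the receptor gene GPR65, and that from UNC80 to SF3B1 (median 0.52) holds ATIC, STAT4 and LSS.

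Counts and FPKM, the deposited measures of the same libraries, were compared for the genes apart. Of the genes at least 2-fold higher in clone 41 by count and listed with FPKM, 610 of 882 (69.2%) were also 2-fold higher on log2(FPKM + 0.1), and of those lower 904 of 1224 (73.9%), while 9 of the higher and 18 of the lower pointed the other way. With at least 5 CPM the shares were 401 of 482 and 433 of 465, and none pointed the other way. ARHGAP27, a GTPase activator, had the largest gap between the measures among genes of at least 5 CPM, though it was within 2-fold by count: its log2 ratio was 0.88 by count (2306 counts in clone 41, 1354 in clone 47 and 2107 in the control) and -2.99 by FPKM (0.193 in clone 41, 2.23 in clone 47 and 0.511 in the control). NACC2 differed likewise, at -0.31 by count and 1.46 by FPKM. For DSP and MYLK2 the direction held, at -4.46 and -4.24 by FPKM on that scale.

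At the edge of the comparison, 46 members had a highest count of exactly 10 in the clones and 69 genes just missed it with 9. ACSL6 (10 counts in clone 41, 3 in clone 47 and 8 in the control) and AGMO (10 in clone 41, 4 in clone 47 and 11 in the control) were just inside, and ADGRL4 (9 in clone 41, 2 in clone 47 and 3 in the control) and AKAP2 (9 in clone 41, 3 in clone 47 and 3 in the control) just outside. The ratio of ACSL6, 3.60, had an interval of 0.928 to 20.4, so at such counts a 2-fold difference is within counting error.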

How the data were processed

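RNA from 3 cultures was sequenced as strand-specific, PCR-amplified mRNA libraries with 75-base paired ends, per the labels' protocols. Alignment and quantification programs named in the submitters' processing notes are Cuffdiff, Cufflinks 2.2.1, Bowtie, TopHat and TopHat2, and the named build is galGal4 of the chicken. The authors deposited read counts as unscaled whole numbers for each gene. They also deposited FPKM, under a cover sheet that speaks of normalised counts. The counting program, annotation and strand option were not given in the sources used here, so reads of overlapping, antisense or near-identical genes cannot be told apart.

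Groups came from the sample titles and genotype labels. Genes with at least 10 counts in clone 41 or clone 47 were kept, the 3 libraries were scaled by TMM in edgeR 4.0.16 (R 4.3.3) on those genes, and log2 CPM was computed with a prior count of 2. A gene was called apart at a log2 difference of at least 1. No test was run, since each clone is 1 library. Intervals are from the exact conditional binomial distribution (scipy 1.17.1) with the effective library sizes, at 95%. A count of 0 was set to a floor of 3 counts for bounds. On FPKM, log2(value + 0.1) was used. The scaling step was tested on simulated counts with counting error alone and few changed genes, as many up as down. Differences as many and as uneven as those found here were not simulated, so that test cannot decide between the scalings.

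The 77 gene lists were written as symbols or symbol patterns, 15 entries matched through RefSeq synonyms, and 1 list had no member. Genes named are SRSF1, the 15 furthest apart each way with a mean of at least 5 CPM and 2-fold on FPKM, the 10 most abundant, the 5 per direction at 0 in one clone, the 5 whose counts and FPKM differ most, up to 4 per list with a mean of at least 1 CPM, genes at the count limit, and neighbours. CD79B, PAX5, CD3E, CD28, CD14, IRAK2, TLR21, HNRPK, CDH1, CSTF1, MKLN1, CHCHD3 and the genes listed in windows were named after their values were seen. The members and lists were chosen with earlier results of these data known. Alternatives were scaling by total count or by DESeq2 1.42.0 size factors, other prior counts, other filters and FPKM. Some genes and 1 list that these rules name are not reported here.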

Additional observations from a re-analysis of the deposited data

How the results depend on the processing

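No paired analysis was possible because each clone is 1 library, and for the same reason no library could be left out. The count of genes at least 2-fold apart, 2122 (886 higher and 1236 lower in clone 41), was 2202 (705 and 1497) with scaling by total count, and stayed within 1.5 times its value with DESeq2 size factors, prior counts of 0.5 or 8, every gene with at least 1 count and log2(FPKM + 0.1) on the same genes. It moved by more in 3 settings. Genes with a mean of at least 5 CPM gave 948 (482 and 466), log2(FPKM + 1) gave 804 (361 and 443), and log2(FPKM + 0.1) with at least 1 FPKM in a clone gave 1225 (493 and 732); the first and last test fewer genes, and for the second a larger pseudocount shrinks the ratios of low genes. Of the 76 list medians, 58 kept their sign under both other scalings, a prior count of 0.5 and FPKM, and 18 changed sign in at least 1 of these, none of them beyond 0.2. Among members with a mean of at least 5 CPM, an alternative chosen after seeing the data, 11 list medians changed sign. Depth limits genes of few counts most: for 791 of the 2122 genes apart the counting interval reached within 2-fold.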
